A study of Mus musculus with 2 samples.

Results

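The 10 genes described here make, sense and remove retinoic acid, the vitamin A derivative that patterns the embryonic heart. They were chosen by their known roles and not by a measured value, although earlier results of these data were known at the time. *Aldh1a1*, *Aldh1a2* and *Aldh1a3* formed the synthesis group of 3 genes, *Rara*, *Rarb*, *Rxra* and *Rxrg* the receptor group of 4 genes, and *Cyp26a1*, *Cyp26b1* and *Cyp26c1* the breakdown group of 3 genes, out of 21938 protein-coding genes of the GENCODE M21 annotation on chromosomes 1 to 19, X and Y. For each gene, accessible chromatin was read at every annotated transcript start (1 kb on each side) and across its locus, meaning the gene body and 50 kb on each side.

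Chromatin came from whole hearts of wildtype FVB embryos at E11.5 (49 to 51 somites). Each of the 2 replicates pooled a pair of hearts and used about 50000 cells for ATAC-seq, in which a transposase cuts open DNA and inserts sequencing adapters, and 50 bp single-end reads were taken. Both replicates belong to the same 1 group, so the design has no contrast between conditions, and every comparison below is between genes. The labels do not say whether the pairs came from separate litters, and the difference between replicates may therefore be partly technical. In a whole heart, a site open in few cells and a site weakly open in many cells cannot be told apart, and a peak is not a measure of transcription.

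Retinaldehyde dehydrogenases of the Aldh1a family carry out the last oxidation step from retinol to retinoic acid, and *Aldh1a2* is the member best known in the heart, where the venous pole and later the epicardium make the signal. Retinoic acid binds retinoic acid receptors (RAR), which sit on DNA as partners of retinoid X receptors (RXR) at pairs of short half-sites in the same direction. Enzymes of the Cyp26 family oxidise retinoic acid to inactive products and so shape where the signal reaches. *Rarb* and *Cyp26a1* are textbook targets of the receptors as well as parts of the pathway.

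The lists held 118027 peaks in replicate 1 and 114783 in replicate 2. A shared region is the stretch of a replicate 1 peak that a replicate 2 peak covers by at least 1 bp, and 98850 such regions lay on the chromosomes used. Fold enrichment is the read pileup at the summit over a genome-wide background of 2.68 reads in replicate 1 and 2.98 in replicate 2, with 1 added to both. Because these backgrounds gave whole reads for 100% of peaks (within 0.05 reads), each value could be given an exact Poisson 95% interval, which covers counting error only. Across all shared regions the log2 ratio of the replicates had an SD of 0.53. As a check of the tissue label, a region lay at a start of 6 of 6 cardiomyocyte, 6 of 6 endothelial, 5 of 6 epicardial and 6 of 6 erythroid genes but 1 of 6 neural genes. Lung and gut epithelium had 4 of 6 and liver 2 of 6, beside 67.6% of all protein-coding genes, and the part of these cell types in the results was not tested.

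The sequences below are GRCm38 reference sequence (C57BL/6J, not FVB), written 5′ to 3′ on the strand of the gene, and they show the places on which the results turn. Capitals mark matches to a receptor half-site (AGGTCA, also with G as the first base or T as the base before TCA) or to the GATA motif (AGATAA, also with T as the first base), on either strand, and a DR5 pair is in capitals with its spacer. The first pair holds the DR5 pairs, direct repeats of the half-site with a 5-base spacer and the classical arrangement for RAR and RXR, which fell at a *Rarb* start (chr14:16575513-16575529, minus strand, inside an annotated UTR, site alone) and in the 150 bp before the outermost *Cyp26a1* start (chr19:37697648-37697797, plus strand), where it reads on the opposite strand.
Rarb DR5 site: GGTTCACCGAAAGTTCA
Cyp26a1 before start: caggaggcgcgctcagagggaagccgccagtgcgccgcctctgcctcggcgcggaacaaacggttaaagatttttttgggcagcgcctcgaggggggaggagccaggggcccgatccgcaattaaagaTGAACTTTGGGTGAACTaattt
The next set shows synthesis genes, namely the 150 bp before the *Aldh1a1* start that had a region (chr19:20601811-20601960, plus strand), the summits before the only *Aldh1a2* start (chr9:71215403-71215553, plus strand) and the strongest region of the *Aldh1a2* locus, in an intron (chr9:71276332-71276482, plus strand).
Aldh1a1 before start: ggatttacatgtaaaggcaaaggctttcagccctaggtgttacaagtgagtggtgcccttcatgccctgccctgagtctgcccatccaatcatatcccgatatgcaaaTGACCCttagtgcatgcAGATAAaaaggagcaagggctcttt
Aldh1a2 before start: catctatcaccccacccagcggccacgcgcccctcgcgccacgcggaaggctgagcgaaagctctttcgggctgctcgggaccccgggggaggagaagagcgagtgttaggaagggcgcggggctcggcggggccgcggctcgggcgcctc
Aldh1a2 intron: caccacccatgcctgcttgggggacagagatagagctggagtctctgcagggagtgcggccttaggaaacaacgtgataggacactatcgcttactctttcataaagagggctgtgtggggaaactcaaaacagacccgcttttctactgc
The last set shows the strongest regions, by mean fold enrichment, of 3 loci that lay at no start of the gene: introns of *Rarb* (chr14:16714488-16714638, minus strand) and *Rxra* (chr2:27703299-27703449, plus strand), and the region in the neighbouring gene *Exoc6* that falls in the loci of both *Cyp26a1* and *Cyp26c1* (chr19:37668339-37668489, plus strand).
Rarb intron: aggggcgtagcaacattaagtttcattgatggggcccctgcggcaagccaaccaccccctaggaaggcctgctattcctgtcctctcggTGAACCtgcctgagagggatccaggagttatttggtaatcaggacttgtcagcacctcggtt
Rxra intron: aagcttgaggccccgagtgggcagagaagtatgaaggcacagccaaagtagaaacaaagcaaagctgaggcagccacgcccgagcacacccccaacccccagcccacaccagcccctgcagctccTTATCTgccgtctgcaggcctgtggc
Exoc6 body near Cyp26a1 and Cyp26c1: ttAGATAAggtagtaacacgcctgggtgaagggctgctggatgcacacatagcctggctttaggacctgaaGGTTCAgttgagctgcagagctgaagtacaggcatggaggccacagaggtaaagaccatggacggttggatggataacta

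Accessible chromatin was found at the starts of most of the genes, and it was strongest at the receptors. A shared region lay within 1 kb of at least 1 annotated start in 9 of the 10 genes, beside 67.6% of all protein-coding genes, and *Cyp26c1* was the gene without one. Counted by start, 30 of 43 starts had a region, beside 58.0% of the starts of all protein-coding genes. These were 5 of 11 synthesis starts, 20 of 24 receptor starts and 5 of 8 breakdown starts. Every annotated start had a region in 4 genes (*Aldh1a2*, *Rarb*, *Rxrg* and *Cyp26a1*), beside 28.8% of all genes. A fold enrichment of 10 or more in both replicates was reached by 5 genes (*Aldh1a3* and the 4 receptors), beside 55.7% of all genes, and 20 or more by 3 genes (*Rara*, *Rarb* and *Rxra*), beside 40.1%. Starts at which no list had a peak were 13 of the 43, and 2.70 to 15.3% of their windows was repeat-masked sequence, against 2.45 to 24.5% at the starts with a region.

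**Figure D1:**
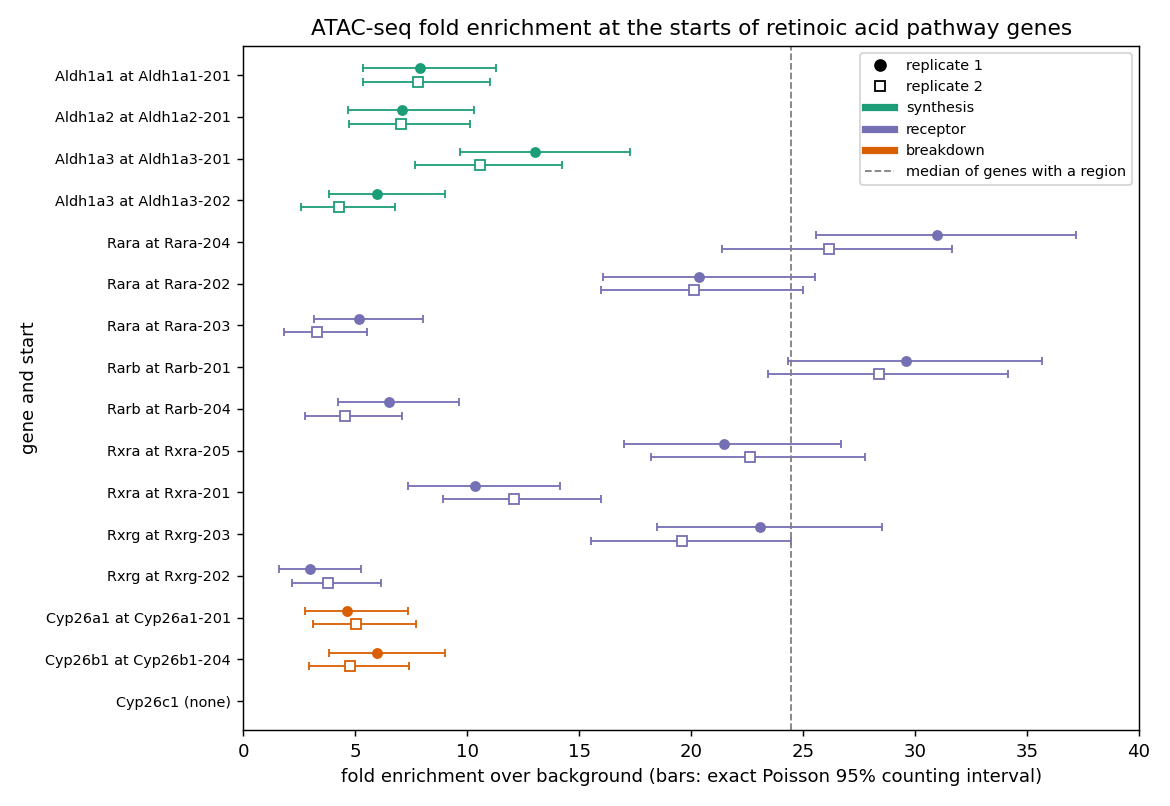
Fold enrichment (horizontal axis) of the strongest shared region at each start, drawn once where starts share it and labelled by the transcript whose start is nearest to the summit, with filled circles for replicate 1, open squares for replicate 2 and bars for the exact Poisson 95% counting interval. The dashed line is the replicate 1 median (24.5) of all protein-coding genes that have a region, and the highest values of the 4 receptors (19.6 to 31.0) lie to the right of all synthesis and breakdown values (up to 13.0).

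Among the synthesis genes, *Aldh1a2* (chr9:71215789-71296243, plus strand) had a single annotated start and a region there with a fold enrichment of 7.06 in replicate 1 (95% interval 4.67 to 10.3) and 7.04 in replicate 2 (4.72 to 10.1). The summits lay 319 and 302 bp before the start, and the values rested on 25 and 27 reads. A second region began after the start (chr9:71216070-71216216, 7.06 and 4.27), but it shares its replicate 1 peak with the first. The enrichment at this gene, the main source of retinoic acid in the heart by textbook knowledge, thus lay well under the median of genes with a region at a start (24.5 and 24.6).

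*Aldh1a1* (chr19:20492715-20643465, plus strand), an enzyme best known from the eye and liver, had 5 annotated starts. The 4 outer starts lie close together and had no peak in either replicate, with the nearest shared region 3766 to 3811 bp away. A region was present at the remaining start, that of Aldh1a1-201, whose region lay 109.1 kb into the gene, with a fold enrichment of 7.88 (5.33 to 11.3) in replicate 1 and 7.79 (5.34 to 11.02) in replicate 2. The replicate summits fell 34 and 113 bp before it, inside the sequence printed above, which holds 1 half-site and 1 GATA match.

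*Aldh1a3* (chr7:66390890-66427517, minus strand), which makes retinoic acid in the developing eye and nose, had the highest start of the group. The region at its outermost start measured 13.0 (9.65 to 17.3) in replicate 1 and 10.6 (7.65 to 14.2) in replicate 2, with summits 15 and 9 bp before the start of Aldh1a3-201, and it also reached the window of Aldh1a3-203. A retained-intron transcript, Aldh1a3-202, had 5.98 and 4.27. Aldh1a3-204 and Aldh1a3-205 had no peak in either list.

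Among the receptors, *Rara* (chr11:98927818-98974942, plus strand), a nuclear receptor expressed in many tissues, had 3 separate open starts. The starts of Rara-204, Rara-201 and Rara-205 shared a wide region of 2536 bp with 31.0 (25.6 to 37.2) in replicate 1 and 26.1 (21.4 to 31.7) in replicate 2. The start of Rara-202, further into the gene, had 20.4 (16.1 to 25.5) and 20.1 (16.0 to 25.0). A second region at that start (chr11:98961235-98961585, 20.4 and 3.27) shares its replicate 1 peak with the first. The outermost start, Rara-203, had 5.16 (3.17 to 7.999) and 3.27 (1.81 to 5.52). By the strongest region of each start, it was thus the weakest *Rara* start with a region. Its intervals did not overlap those of the 2 strongest start regions. Rara-206 and Rara-207 had no peak in either list, with the nearest shared region 1131 and 1130 bp away.

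The same order held at *Rarb* (chr14:16430839-16819156, minus strand). The outer cluster of 2 starts (Rarb-203 and Rarb-204) had 6.52 (4.23 to 9.65) in replicate 1 and 4.53 (2.74 to 7.09) in replicate 2. The inner cluster of 5 starts, 243 kb further into the gene, shared a region of 2568 bp (chr14:16573500-16576067) with 29.6 (24.3 to 35.7) and 28.4 (23.4 to 34.1). The intervals of the clusters did not overlap in either replicate. A neighbouring region in an intron (chr14:16572668-16573235, 6.52 and 28.4) shares the replicate 2 peak of the inner region and so its value. The inner region also overlaps the annotated start of another gene model, *Gm48162*, and its reads cannot be assigned to either. The DR5 site lay in this region, 15 bp from the replicate 1 summit and 52 bp from the replicate 2 summit. Its centre was 22 bp after the start of Rarb-201 and 49 bp before that of Rarb-202.

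*Rxra* (chr2:27676440-27762957, plus strand) encodes the RXR most widely used as a partner by other nuclear receptors. The region at its 3 outer starts measured 10.3 (7.35 to 14.1) in replicate 1 and 12.1 (8.93 to 16.0) in replicate 2. The region at Rxra-205, a transcript annotated as not coding for protein, measured 21.5 (17.0 to 26.7) and 22.6 (18.2 to 27.8). Rxra-202 and Rxra-203 had no peak in either list, with the nearest shared region 4549 and 5840 bp away. Without Rxra-205 the gene would have passed a fold enrichment of 10 but not 20.

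*Rxrg* (chr1:167598384-167639623, plus strand), the RXR with the narrowest known tissue range, was highest at its 3 outer starts, with 23.1 (18.5 to 28.5) in replicate 1 and 19.6 (15.5 to 24.4) in replicate 2. The inner start, Rxrg-202, had 2.99 (1.57 to 5.27) and 3.77 (2.18 to 6.16) on 10 and 14 reads. *Rxrg* thus differed from *Rara* and *Rarb*, where the outermost start was weak and an inner start strong.

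By the strongest start of each gene, the breakdown genes were the lowest. At *Cyp26a1* (chr19:37697798-37701536, plus strand), the member most readily induced by retinoic acid, the strongest start region had 4.62 (2.76 to 7.33) in replicate 1 and 5.03 (3.13 to 7.71) in replicate 2, on 16 and 19 reads. A second, shorter region beside it (4.07 and 5.03) shares the replicate 2 peak. Both regions also lay within 1 kb of the start of Cyp26a1-202. The DR5 site lay 72 bp from the replicate 1 summit and 138 bp from the replicate 2 summit, and its centre was 14 bp before the start of Cyp26a1-201.

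*Cyp26b1* (chr6:84571414-84593908, minus strand), which clears retinoic acid in limb, gonad and skeleton, had no peak in either list at its outer starts (Cyp26b1-201 and Cyp26b1-202), from which the nearest shared region lay 3114 and 3276 bp away. A region near its 3 inner starts had 5.98 (3.80 to 8.99) in replicate 1 and 4.78 (2.93 to 7.40) in replicate 2, with summits 529 and 375 bp before the start of Cyp26b1-204. A separate region (chr6:84587490-84587933, 5.70 and 5.03) lay 32 bp from the start of Cyp26b1-205 and was nearer to that start. *Cyp26c1* (chr19:37685581-37693398, plus strand) has 1 annotated start, without a peak in either list, and its nearest shared region was 1398 bp away.

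Taking the strongest start of each gene, the 4 receptors spanned 21.5 to 31.0 in replicate 1 and 19.6 to 28.4 in replicate 2. The 3 synthesis genes spanned 7.06 to 13.0 and 7.04 to 10.6, and the 2 breakdown genes with a region 4.62 to 5.98 and 4.78 to 5.03. The values of the 3 groups did not overlap in either replicate, but the counting intervals of the breakdown and synthesis starts did (*Cyp26b1* 3.80 to 8.99 and *Aldh1a2* 4.67 to 10.3 in replicate 1), as did those of *Aldh1a3* and *Rxra* in replicate 1 (9.65 to 17.3 and 17.0 to 26.7). The separation of receptors from synthesis genes also rested on Rxra-205: with starts of protein-coding transcripts only, *Rxra* had 10.3 and 12.1, under *Aldh1a3* (13.0) in replicate 1. The medians of the genes with a region were 26.4 and 24.4 for receptors, 7.88 and 7.79 for synthesis and 5.30 and 4.90 for breakdown, beside 24.5 and 24.6 for all protein-coding genes with a region. The receptors were thus near the level of a typical open start, and the enzymes of both directions were under it. With 3 or 4 genes a group, chosen for their function, no test was made of these differences.

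Across the loci, 135 distinct shared regions were counted, of which 98 lay in receptor loci, 20 in synthesis loci and 17 in breakdown loci. They were 54 to 2568 bp long, with a median of 396 bp. A fold enrichment of 10 or more in both replicates was reached by 21 of the 135 regions (15.6%, beside 21.9% of all shared regions). Of these, 20 were in receptor loci (20.4% of the regions there), 1 was in a synthesis locus and 0 were in breakdown loci. The 6 regions with 20 or more in both (4.44%, beside 9.39% of all shared regions) were in receptor loci, which hold most of the regions, and 4 of them were at starts of the receptors and 2 at starts of other genes. The median fold enrichment of a region was 7.06 and 5.53 for synthesis, 5.98 and 5.66 for receptors and 5.98 and 4.53 for breakdown in replicates 1 and 2, beside 6.52 and 5.78 for all shared regions.

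**Figure D2:**
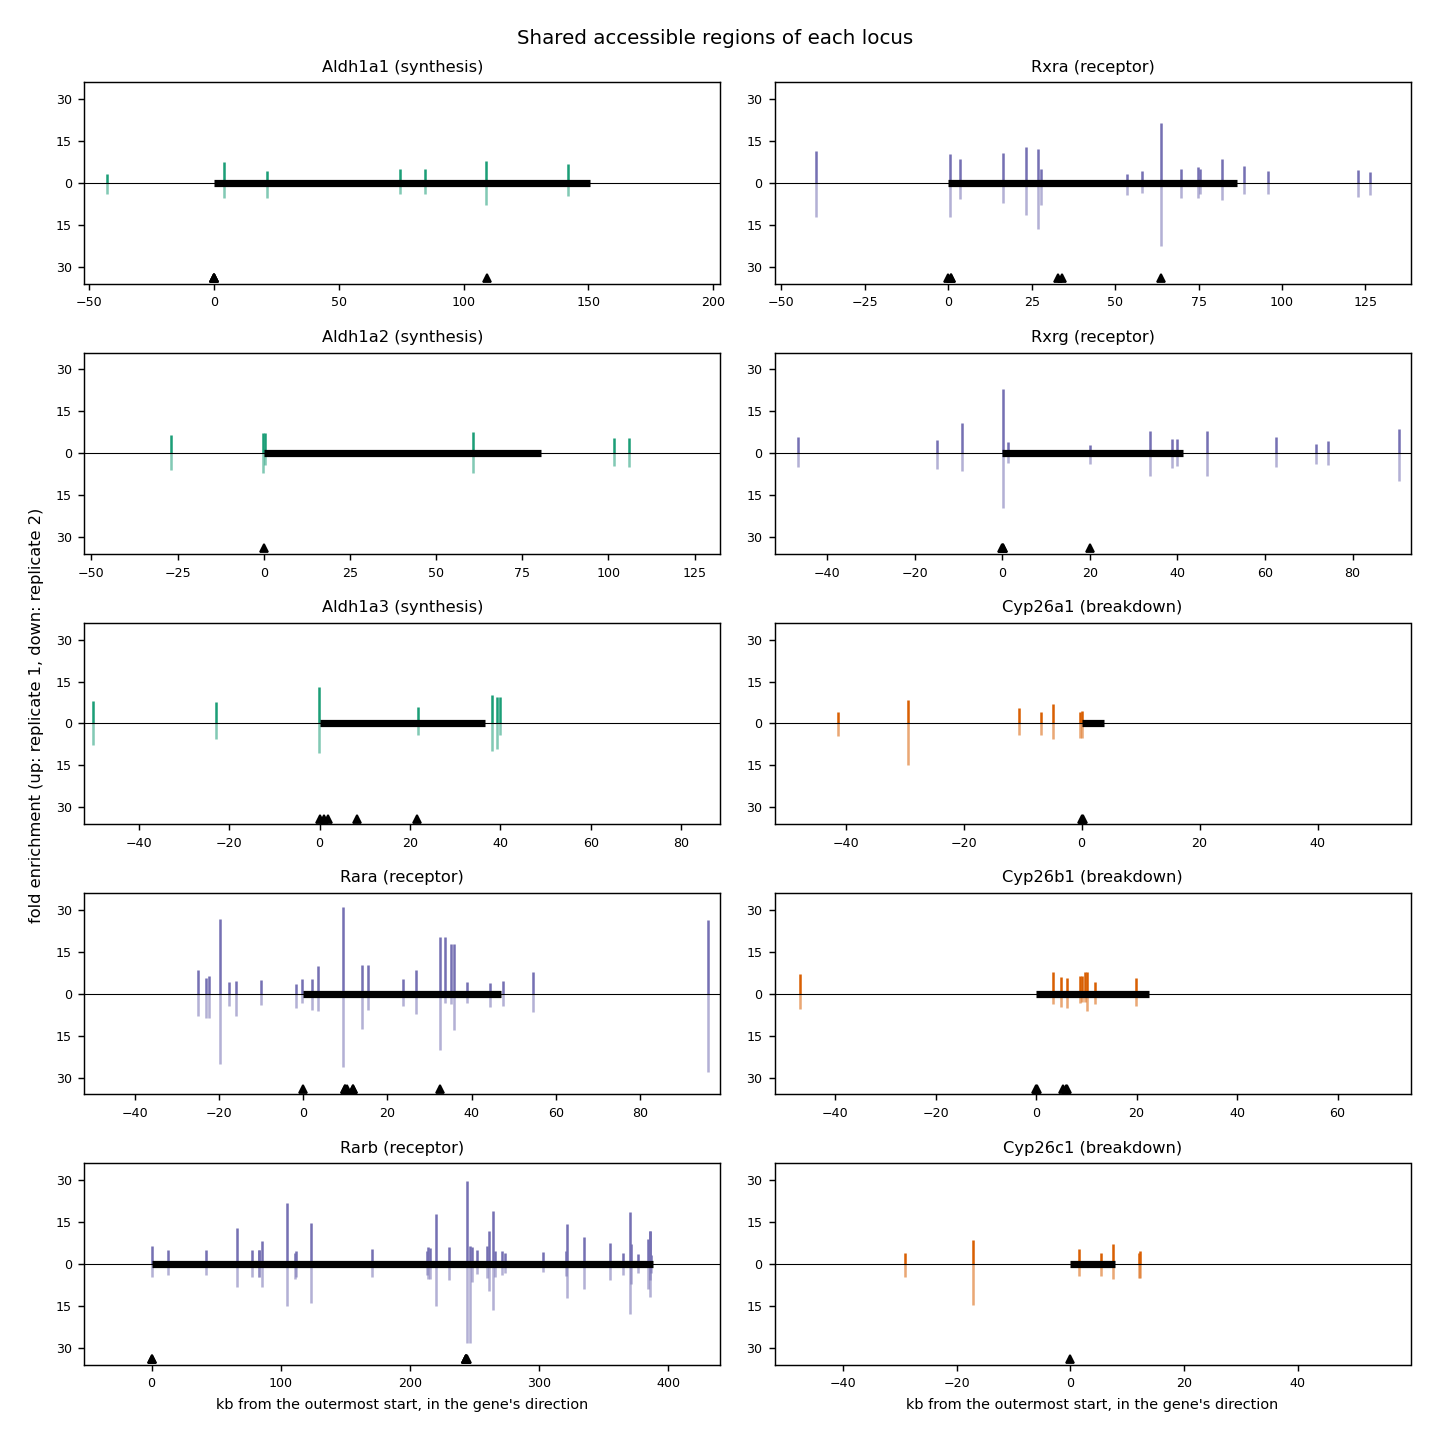
Each panel maps the shared regions of 1 locus by distance in kb from the outermost start in the direction of the gene, with the fold enrichment of replicate 1 drawn upward and that of replicate 2 downward, the gene body as a thick line and annotated starts as triangles. The tallest line of *Rarb* stands at an inner start, equalled in replicate 2 by a neighbouring region under the same peak (28.4), and that of *Rara* stands at an inner start in replicate 1 (31.0), while in replicate 2 the tallest of *Rara* is at a start of *Top2a* (28.2), the *Rarb* regions all lie in the gene body, and the *Cyp26a1* and *Cyp26c1* panels show the same 7 regions.

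Relative to length, receptor loci held the most regions with flanks of 50 kb. The density of shared regions was 17.0 per 100 kb at *Rara*, 9.91 at *Rxrg*, 9.65 at *Rxra* and 8.40 at *Rarb*, against a median of 5.41 over all protein-coding genes (quartiles 2.42 and 8.95). It was 8.16 at *Cyp26b1*, 6.75 at *Cyp26a1* and 6.49 at *Cyp26c1*, and 5.12 at *Aldh1a3*, 3.33 at *Aldh1a2* and 2.79 at *Aldh1a1*. The group medians were 9.78 for receptors, 6.75 for breakdown and 3.33 for synthesis. That order depended on the settings, since with a flank of 20 kb breakdown (12.6) lay above receptors (11.47) and synthesis (3.15), and with a q-value of at most 1e-10 synthesis (1.66) lay above breakdown (0.928) and under receptors (4.09).

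**Figure D3:**
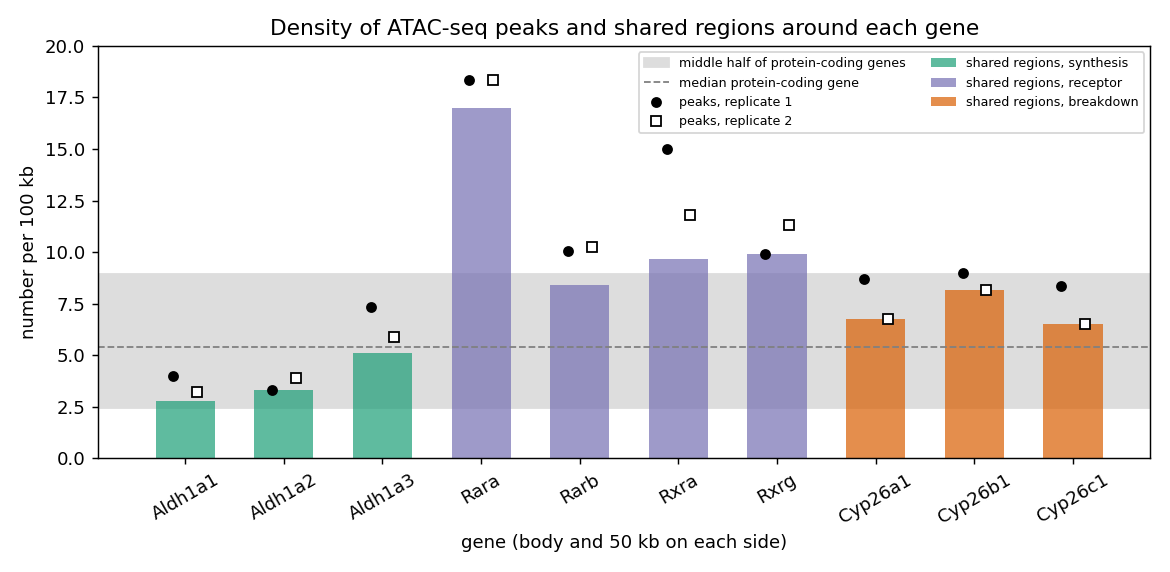
Bars give the shared regions per 100 kb of each locus, filled circles the peaks of replicate 1 and open squares the peaks of replicate 2, with the grey band and dashed line for the quartiles and median of all protein-coding genes. Only the *Rara*, *Rxra* and *Rxrg* bars (9.65 to 17.0) rise above the band, which ends at 8.95.

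Away from every annotated start of any gene lay 108 of the 135 regions (80.0%, beside 75% of all shared regions), comprising 83 in receptor loci, 13 in breakdown loci and 12 in synthesis loci. Their density was 7.08 to 12.2 per 100 kb at the 4 receptors, 4.64 to 6.53 at the breakdown genes and 1.46 to 2.39 at the synthesis genes. The median for all protein-coding genes was 2.74 (quartiles 0.923 and 5.13). The 3 groups did not overlap with flanks of 50 kb, where *Cyp26a1* and *Cyp26c1* hold the same regions. Other flanks were not run for this density, and for all regions a flank of 20 kb put breakdown above receptors. Among all protein-coding genes, *Rara* stood at the 98.0 percentile of this density, *Rxra* at 92.2, *Rarb* at 90.5 and *Rxrg* at 86.9, while *Aldh1a1*, *Aldh1a2* and *Aldh1a3* stood at 45.6, 44.3 and 32.6. The breakdown genes lay between, with *Cyp26b1* at 84.1, close to *Rxrg*, *Cyp26a1* at 72.5 and *Cyp26c1* at 70.7.

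**Figure D4:**
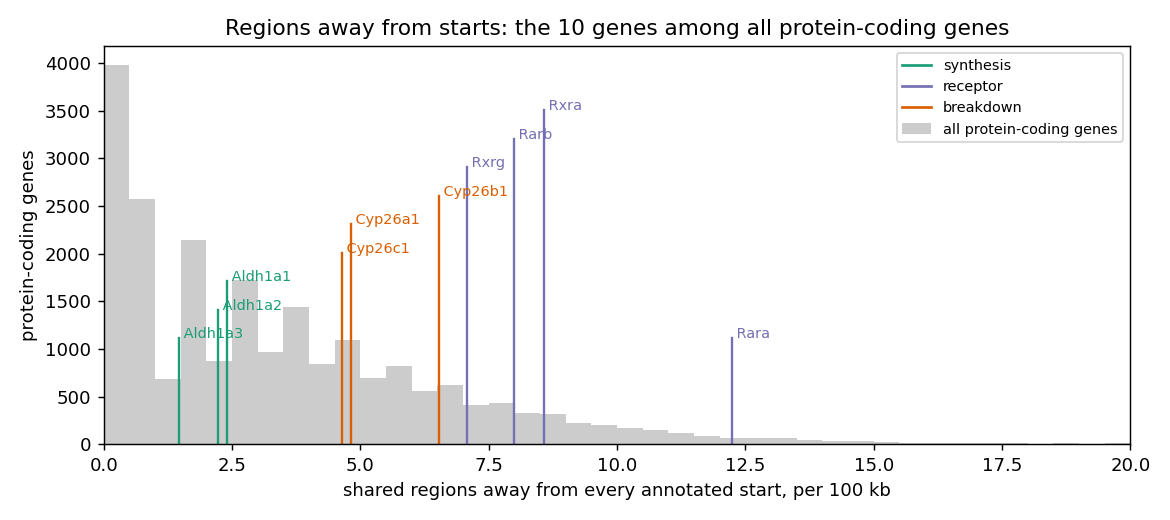
Grey bars count protein-coding genes by their density of shared regions away from every annotated start (per 100 kb, horizontal axis), and coloured lines mark the 10 genes, at heights chosen only to separate the names. With flanks of 50 kb, the only setting run for this density, the synthesis genes (1.46 to 2.39) lie to the left of the breakdown genes (4.64 to 6.53). These lie to the left of the receptors (7.08 to 12.2).

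The *Rarb* locus held 41 shared regions, the most of the 10 loci, and all 41 lay in the gene body. Its flanks, 100 kb in all, held none, with 1 peak in replicate 1 and 3 in replicate 2. Between its start clusters, 17 regions lay in 241 kb (7.05 per 100 kb), and from the inner cluster to the gene end 22 lay in 143 kb (15.4 per 100 kb). The strongest region away from its starts was the intronic one printed above (chr14:16714309-16714954), 104373 bp from the nearest *Rarb* start, with 21.7 and 15.1. The third region of the locus (chr14:16448443-16449329), also intronic, had 18.5 and 17.9.

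At *Rxra*, 13 of 18 regions lay in the body, although replicate 1 by itself, without replicate 2, had 28 peaks in the locus. By mean fold enrichment, its strongest regions at no start were the intronic one printed above (chr2:27703031-27703703, 12.2 and 16.3), which holds a GATA match, and another intronic one (chr2:27699439-27699998, 13.0 and 11.3). *Rxrg* had 14 regions, 6 of them in the body. Its second region (chr1:167688269-167689598, 8.69 and 10.1) lay at a start of *Lmx1a*, a homeobox gene, and the third (chr1:167588833-167589268, 10.9 and 6.29) was intergenic, 9.3 kb before the outermost start. *Rara* had 25 regions in a crowded stretch of chromosome 11. Several of these are parts of the same replicate 1 peak, and 17 were left where peaks had to overlap by 50% both ways. The second and the third region of the locus belonged to starts of other genes, *Top2a*, a topoisomerase of dividing cells (chr11:99023388-99024631, 26.4 and 28.2), and *Cdc6*, a replication licensing factor (chr11:98907463-98908357, 26.6 and 25.1).

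The synthesis loci were sparse. *Aldh1a2* had 6 regions, led by the intronic one printed above, 60.6 kb into the gene (chr9:71276220-71276644, 7.61 and 7.04), whose values were close to those of its start. The third lay 26.8 kb before the start, in the body of the gene model *Gm32511* (chr9:71188639-71189245, 6.52 and 6.03). *Aldh1a1* had 7 regions, its second being intronic, 4.0 kb after the outermost start and within the overlapping gene model *C730002L08Rik* (chr19:20496526-20496904, 7.33 and 5.53), and the third exonic (chr19:20634353-20634673, 6.79 and 4.53). At *Aldh1a3*, 7 regions were counted, and the second (chr7:66388998-66389609, 10.1 and 9.80) and the third (chr7:66387911-66388688, 9.51 and 9.05) lay at starts of *Lrrk1*, a kinase gene.

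*Cyp26a1* and *Cyp26c1* lie 4399 bp apart and share all 7 regions of their loci, so they do not count as independent loci. Their strongest region was the one in *Exoc6* printed above (chr19:37668146-37668619), with 8.42 in replicate 1 and 14.8 in replicate 2, 29.4 kb before the *Cyp26a1* start and 17.2 kb before that of *Cyp26c1*. The next were at exons of *Cyp26c1* (chr19:37692884-37693193, 7.06 and 5.53, and chr19:37686979-37687417, 5.43 and 4.27). *Cyp26b1* had 10 regions, 9 of them in a body of 22.5 kb. The strongest was intronic (chr6:84583335-84584039, 7.61 and 6.03), followed by one in *Exoc6b* (chr6:84640520-84641045, 7.06 and 5.53) and another in an intron (chr6:84590371-84590632, 7.88 and 3.52).

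Motif letters were counted in windows of 150 bp on each side of the mean summit, on both strands. In 112 of the 135 member regions both summits lie inside the region, and in the others the window, and so a match, can lie outside it. A receptor half-site was present in the windows of 63 of the 135 member regions (46.7%), beside 46.8% of all shared regions. DR5 pairs were present in 3 member windows (2.22%), beside 0.252% of all regions. These were only 2 distinct sites, those printed above, since the *Cyp26a1* site falls in the windows of 2 neighbouring regions. A pair with a 2-base spacer (DR2) was present in 1 member window, in *Rarb*, and a pair with a 1-base spacer (DR1) in 0, beside 0.168% and 0.199% of all regions. Every DR match is also counted under the half-site. The GATA motif was present in 34 windows (25.2%, beside 33.5%) and the TEAD motif GGAATG in 24 (17.8%, beside 20.4%). The WT1 motif GCGTGGGNG was present in 1, in the window of the second *Aldh1a2* start region but outside that region, beside 1.22%, the MEF2 consensus in 3 (2.22%, beside 4.24%), and the T-box motif AGGTGTGA in 0, beside 1.27%. These are matches of letters and not measured binding.

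Around these 10 genes, a list of 30 other genes of the pathway was read in the same way. A region at a start was present in 24 of the 30 (80.0%, beside 67.6% of all protein-coding genes), and 17 reached a fold enrichment of 10 in both replicates (56.7%, beside 55.7%). All 6 receptor coregulators had 10 or more in both, among them the corepressor *Ncor1* (23.6 and 26.4) and the coactivator *Ncoa2* (52.2 and 45.0). Both remaining receptors had a region, *Rarg* with 15.5 and 16.1 and *Rxrb* with 26.9 and 27.9. Of 7 genes for the conversion of retinol and retinaldehyde, 4 had a region, including *Rdh10*, which oxidises retinol to retinaldehyde (36.1 and 37.2), and *Dhrs3*, which catalyses the reverse step (14.9 and 14.6), whereas *Adh1*, *Adh7* and *Bco1* had none. The intracellular carriers of retinoic acid had low values at their starts, with *Crabp1* at 7.33 and 4.78 and *Crabp2* at 7.06 and 4.78. Among 5 genes of retinol transport and uptake, 4 had a region, and among 6 known targets of retinoic acid, 5 did, with *Hoxb1* the exception. The start of *Rdh10* thus lay above the 7.04 to 13.0 of the strongest Aldh1a starts.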

How the data were processed

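ATAC-seq peak lists of 2 replicates of E11.5 heart were used as deposited. The submitters' processing notes name Trim Galore 0.6.6, cutadapt, Bowtie2 2.4.2 and SAMtools 1.12, and the paper's methods add removal of duplicates and of reads with low mapping quality, which thins peaks in repeated sequence, and peak calling with MACS2 in each replicate without a local background on mm10. The deposited fold enrichment is a ratio at each summit, the deposited −log10 p-value and −log10 q-value are those of the authors' peak caller, and the authors' score column is derived from the q-value. A last deposited column gives the summit offset. Total read numbers are not in the lists, so the depth is known only through the recovered background.

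Genes and starts came from GENCODE M21, and reference sequence from GRCm38. Overlaps were computed with Python 3.11.15, NumPy 2.4.6 and pandas 2.3.3, intervals with SciPy 1.17.1, sequences with pysam 0.24.0 and plots with Matplotlib 3.10.9. The overlap step was tested on simulated data and found 4200 of 4200 pairs made to overlap. Named are all 10 genes, every start (by transcript or with its cluster of starts), and the 3 shared regions of each locus with the highest mean fold enrichment; further regions were named after their values were seen. Members and lists were chosen with earlier results of these data known. Alternatives were a q-value of at most 1e-10, a p-value of at most 0.00001, peaks overlapping by 50% both ways, each replicate on its own, start windows of 500 bp and 2 kb, starts of protein-coding transcripts only, flanks of 20 kb and 100 kb, and loci without regions at the starts of other genes.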

Additional observations from a re-analysis of the deposited data

How the results depend on the processing

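With 2 replicates of a single group, no test between conditions could be made and a paired fit was likewise not possible. The weakest starts (Rxrg-202, Rara-203 and *Cyp26a1*) rested on 10 to 19 reads at the summit, so their order is not resolved at this depth. A region at a start was found in 9 genes under every alternative except a q-value of at most 1e-10 (7, without *Cyp26a1* and *Cyp26b1*) and windows of 2 kb (10, with *Cyp26c1*). With a q-value of at most 1e-10, the member loci held 54 regions, and the median density per 100 kb was 2.30 over the members, 1.66 for synthesis, 4.09 for receptors and 0.928 for breakdown. With a p-value of at most 0.00001 the receptor median was 8.81. Where the peaks had to overlap by 50% both ways, the medians were 5.27 over the members, 2.79 for synthesis and 4.82 for breakdown. With a flank of 20 kb they were 11.3 over the members, 3.15, 11.47 and 12.6, and with 100 kb 4.99, 2.85, 8.01 and 4.42. Without regions at starts of other genes the synthesis median was 2.93. With either replicate left out, synthesis ranged from 3.88 to 3.99, receptors from 11.6 to 12.5 and breakdown from 6.75 to 8.68, and the members' median from 7.46 to 8.83. By construction, the settings gave shorter lists, longer lists where a replicate was left out, or other locus lengths. Beyond that, the cause of these shifts was not tested. A median was taken as moved when it shifted by at least 1 SD of the 2 replicates' own values, and a count when it changed by over 1.5 times. By this measure 32 summary values stayed and 24 moved, and of the values for single genes 140 stayed and 20 moved.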

Other observations

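The loci of the 10 genes held 164 distinct peaks in replicate 1 and 155 in replicate 2. Of these, 37 (22.6%) were found in replicate 1 alone and 24 (15.5%) in replicate 2 alone. Over the whole lists, 80.95% of replicate 1 peaks and 82.76% of replicate 2 peaks overlapped a peak of the other list, so these shares were close to those of all peaks. The highest fold enrichment among them was 6.25 in replicate 1, with a median of 3.80, and 7.54 in replicate 2, with a median of 3.27. *Rxra* had 10 peaks of replicate 1 alone, the most of any locus in that replicate, and *Rarb* had 10 of replicate 2 alone. *Rxrg* had 0 of replicate 1 alone.

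Gene bodies and flanks differed from gene to gene. The body of *Cyp26b1* held 9 regions in 22.5 kb (40.01 per 100 kb) and its flanks 1 region in 100 kb. The short bodies of *Cyp26c1* (3 regions, 38.4 per 100 kb) and *Cyp26a1* (1 region, 26.75 per 100 kb) were dense too, on few regions. *Rara* had 27.6 per 100 kb in its body and 12 in its flanks, *Rxra* 15.03 and 5, *Rxrg* 14.55 and 8, and *Rarb* 10.56 and 0. *Aldh1a3* had nearly equal values, 5.46 in the body and 5 in the flanks, beside medians of 4.89 and 5 over protein-coding genes of 20 kb or more.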
